A study of Mus musculus with 2 samples.

Results

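The genes described here are 9 linked to the transverse tubule, the plasma membrane or the reticulum of the muscle fibre: Bin1, Dnm2, Mtm1, Mtmr2, Cav1, Cav3, Dysf, Tmem38a and Tmem38b. They were chosen by gene name, as every row of the transcript tables assigned to 1 of these 9 symbols, out of 17859 annotated genes with counts. They held 3683 counts on 238 transcript models in replicate 1 and 3715 counts on 222 models in replicate 2. The samples form 1 group: gastrocnemius, a calf muscle, of 4-day-old male mice of the strain B6CASTF1/J, with no treatment in the labels. Long-read RNA sequencing was run on 2 biological replicates, each from 2 µg of total RNA. The labels number the animals as different males but give them 1 shared donor entry, so it is not settled whether they are unrelated mice.

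Transverse tubules are inward folds of the muscle cell membrane that carry the action potential to the calcium stores. Bin1 (amphiphysin 2) bends membrane into tubules, Dnm2 (dynamin 2) is a GTPase that constricts and cuts membrane necks, and Mtm1 (myotubularin) removes a phosphate from phosphoinositide lipids. Mutations in these 3 genes cause centronuclear myopathies. Caveolins coat the small pits called caveolae, which take part in forming the tubules, and dysferlin, from Dysf, is needed to reseal torn membrane. Tmem38a and Tmem38b encode the TRIC-A and TRIC-B cation channels of the reticulum membrane, which support calcium release.

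The libraries held 998659 and 1026257 counts on annotated mouse genes, the denominator of every value in counts per 1000000 (CPM). Markers of other cell types moved between them. Summed epidermal markers stood at 4.01 CPM in replicate 1 and 847 CPM in replicate 2, and all 5 of 5 genes were higher in replicate 2. Schwann markers were at 1426 and 3452 CPM (4 of 4 higher), adipocyte markers at 146 and 364 CPM (4 of 4 tested higher), and fibroblast and matrix markers at 35080 and 23095 CPM (2 of 4 lower, 1 higher). Endothelial markers stood at 485 and 548 CPM (1 of 6 higher), mural markers at 516 and 576 CPM (2 of 4 higher) and leukocyte markers at 107 and 132 CPM (0 of 3 tested). The 7 fibre markers summed to 105770 and 125151 CPM, with 4 higher and 3 lower in replicate 2, and all 7 were present in both libraries. Replicate 2 therefore stands apart in its skin, nerve and fat transcripts, so the values of the 9 genes below are given per library. Levels per kilobase and those of most other genes are means over both.

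Together the 9 genes took 3688 CPM in replicate 1 and 3620 CPM in replicate 2, or 3654 ± 48.1 CPM (SD, n = 2). Bin1 had the highest level, at 1543 and 1387 CPM (1465 ± 111), which placed it at rank 48 among all genes. Tmem38a followed at 1175 and 1210 CPM (1192 ± 25.2, rank 61). These 2 genes held most of the counts of the group, and no other member came near them. Cav1 stood at 421 and 422 CPM (421 ± 0.960), Dnm2 at 174 and 171 CPM (172 ± 2.62) and Cav3 at 129 and 184 CPM (157 ± 38.9). Tmem38b was at 111 and 100 CPM (106 ± 7.63), Dysf at 71.1 and 63.3 CPM (67.2 ± 5.49), Mtmr2 at 36.0 and 54.6 CPM (45.3 ± 13.1) and Mtm1 at 28.0 and 28.3 CPM (28.1 ± 0.156). Mtm1, with 28 and 29 counts, is thus the lowest of the 9, and its values carry the widest counting error. In this order the ranges of neighbours overlapped only for Dnm2 and Cav3.

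A long read stands for 1 molecule, so CPM was not divided by length. Per kilobase of the longest annotated transcript, Tmem38a came first at 561 CPM per kb and Bin1 second at 546. Cav1 was at 153 CPM per kb, Cav3 at 135, Dnm2 at 49.1, Tmem38b at 37.0, Mtmr2 at 12, Dysf at 9.88 and Mtm1 at 6.85. The order of Tmem38a and Bin1, of Cav3 and Dnm2, and of Mtmr2 and Dysf changed with the division by length. On the per-kilobase scale the ranges of Tmem38a and Bin1 (553 and 570 against 575 and 517) overlapped.

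**Figure D1:**
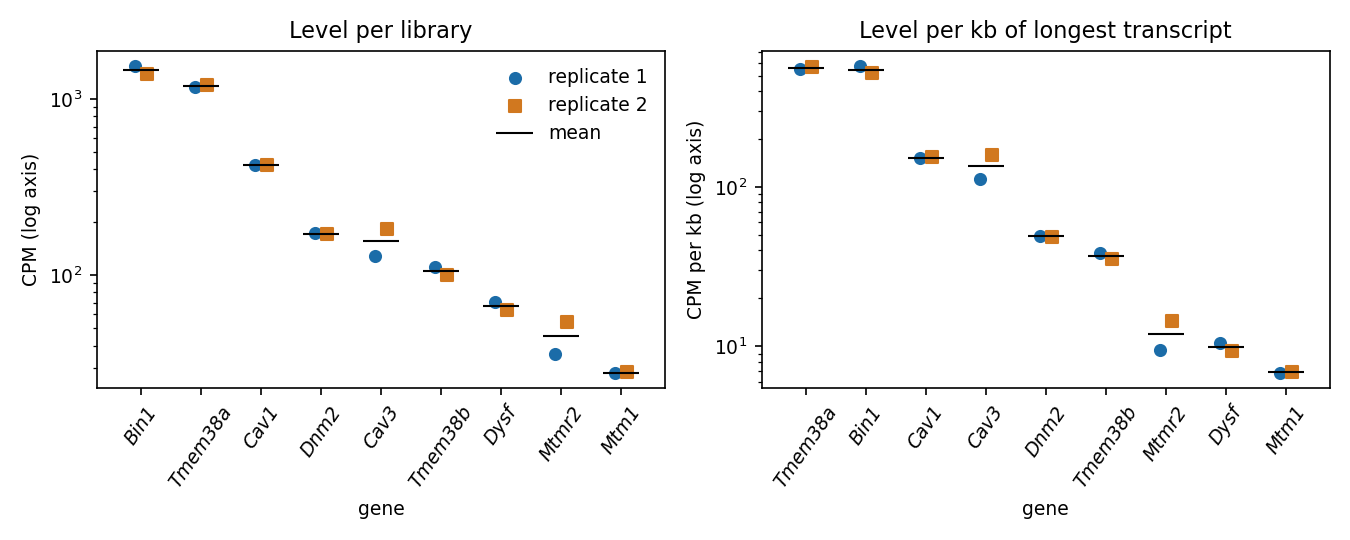
Level of the 9 genes in each library, in CPM on the left and in CPM per kb of the longest annotated transcript on the right, both on log axes. Points are the 2 replicates and bars their mean. Bin1 and Tmem38a lead on both scales, and Cav3 and Mtmr2 show the widest gaps between replicates.

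Between the libraries, Fisher's exact test with Benjamini-Hochberg adjustment called 2 of the 9 genes, where 9.74% of the 11027 genes tested were called (5.25% higher and 4.49% lower in replicate 2). The test covers counting error between these 2 libraries only. Cav3, the muscle caveolin, had 129 and 189 counts and was higher in replicate 2 by 0.51 on the log2 scale (95% interval 0.18 to 0.85, adjusted p = 0.0257 by Fisher's exact test). Bin1 had 1541 and 1423 counts, a log2 ratio of -0.15 (-0.26 to -0.05, adjusted p = 0.0405 by Fisher's exact test). The Bin1 call was lost with TMM library sizes (adjusted p = 0.0775 in an exact binomial test), and neither gene was called with a preset biological coefficient of variation of 0.1 (adjusted p = 0.901 for Bin1 and 0.452 for Cav3 by edgeR's exact test). The sum of the fibre markers moved in the same direction as Cav3, but the 7 markers were split, with 4 higher and 3 lower in replicate 2. The longest annotated transcripts of the 4 higher markers had 700 to 2742 bases and those of the 3 lower ones 3028 to 6149. That of Cav3 had 1157 bases. The parts of fibre content and of transcript length in the result were not tested. In whole tissue, fewer cells of a type and less RNA per cell cannot be told apart. Mtmr2 had a log2 ratio of 0.59 (-0.03 to 1.24, adjusted p = 0.264 by Fisher's exact test), and the other 6 genes lay between -0.17 and 0.04. The median log2 ratio of the 9 genes was 0.00, against -0.04 over all genes tested.

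The deposited tables place each transcript model in a class. By the usual meaning of these names, Known models match the annotation (here GENCODE M21) and ISM models hold part of an annotated intron chain. NIC and NNC models join annotated or unannotated splice sites in a way that the annotation lacks. The classes are used as deposited, and some Bin1 models depart from these meanings. NIC and NNC models took 43.8% and 40.9% of the counts of the 9 genes in replicates 1 and 2, against 14.8% and 12% over all genes. Bin1 alone made up most of this. In Bin1, Known models held only 5.06% and 5.69% of counts, and in Dnm2 29.9% and 19.4%. In Cav3 (96.9% and 98.4%), Cav1 (91.4% and 92.1%), Tmem38a (83.1% and 84.6%), Tmem38b (82.9% and 81.6%), Mtm1 (82.1% and 79.3%) and Mtmr2 (80.6% and 69.6%) the Known models led. Dysf differed from the rest, with 46.5% and 38.5% of its counts on ISM models and 21.1% and 23.1% on Known ones. Genomic models, which match none of the spliced structures of the gene, took 0.575% of Dnm2 counts in replicate 1 (1 of 174) and 12% in replicate 2 (21 of 175).

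**Figure D2:**
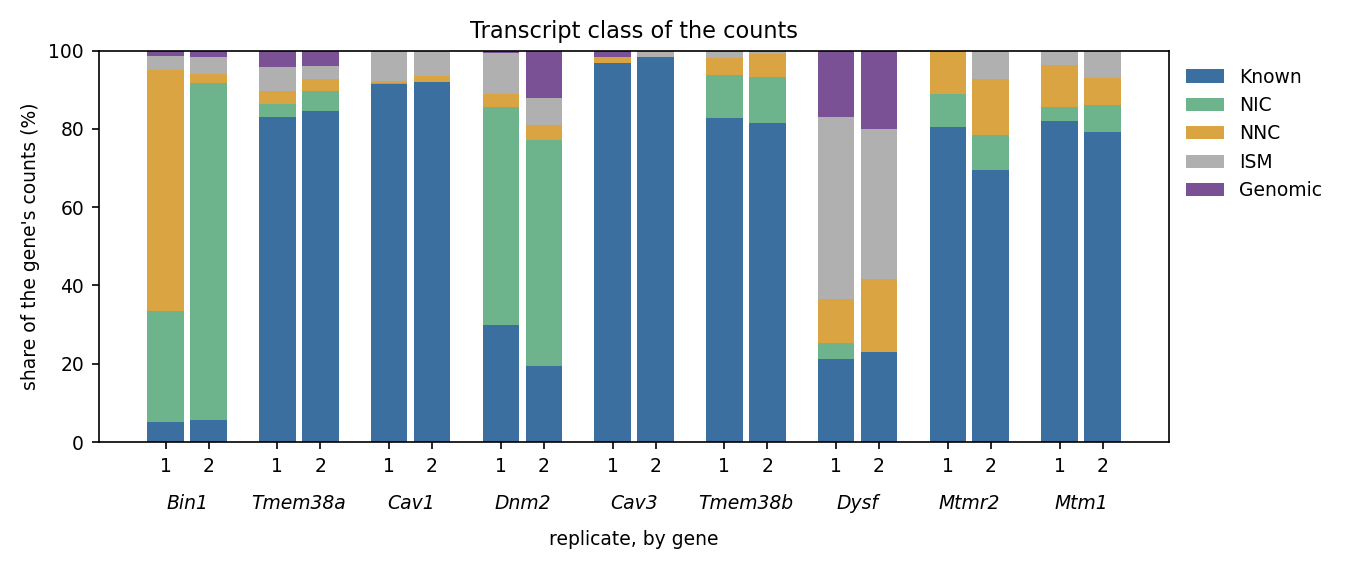
Share of each gene's counts (%) by transcript class, with 1 bar per replicate and genes ordered by level. Known models hold 5.06% and 5.69% of Bin1 counts and over 80% of Cav1, Cav3 and Tmem38a counts in both libraries, and the NIC and NNC parts of Bin1 trade places between the libraries.

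Bin1 lies on chromosome 18 (mm10, chr18:32377230-32435737, plus strand). Its exons are numbered here from 1 to 20 in order of position, which counts the 19 exons of the annotated model with the most exons and 1 exon of 45 bases that is not in GENCODE M21. That exon, number 11 (chr18:32423242-32423286), lies at the position of the muscle exon known to encode a phosphoinositide-binding stretch. It was matched by order and length alone. It was present in 1401 of 1497 informative counts in replicate 1 (93.6%, exact 95% interval 92.2 to 94.8) and in 1263 of 1370 in replicate 2 (92.2%, 90.6 to 93.6). Most Bin1 transcripts in this neonatal muscle thus carried an exon that the annotation lacks.

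The other alternative exons of Bin1 were either rare or intermediate. Exon 17 (72 bases), known to encode part of the Myc-binding region, was included in 71.9% and 73.1% of counts (72.5 ± 0.909%, n = 2). Exon 7 (93 bases), best known from neurons, was included in 3.29% and 3.59%. Exon 13 (129 bases), the first of the exons that encode the clathrin- and AP2-binding region of the brain forms, was in 2.39% and 2.32%. The next 3 exons of that region were close to absent: exons 14 and 15 had 0 counts of 1509 and 1380, which allows up to 0.199% and 0.217%, and exon 16 had 1 count in replicate 1 and 0 in replicate 2. The remaining 11 internal exons, which include those of the membrane-bending BAR domain, were present in at least 99.7% of counts in each library.

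**Figure D3:**
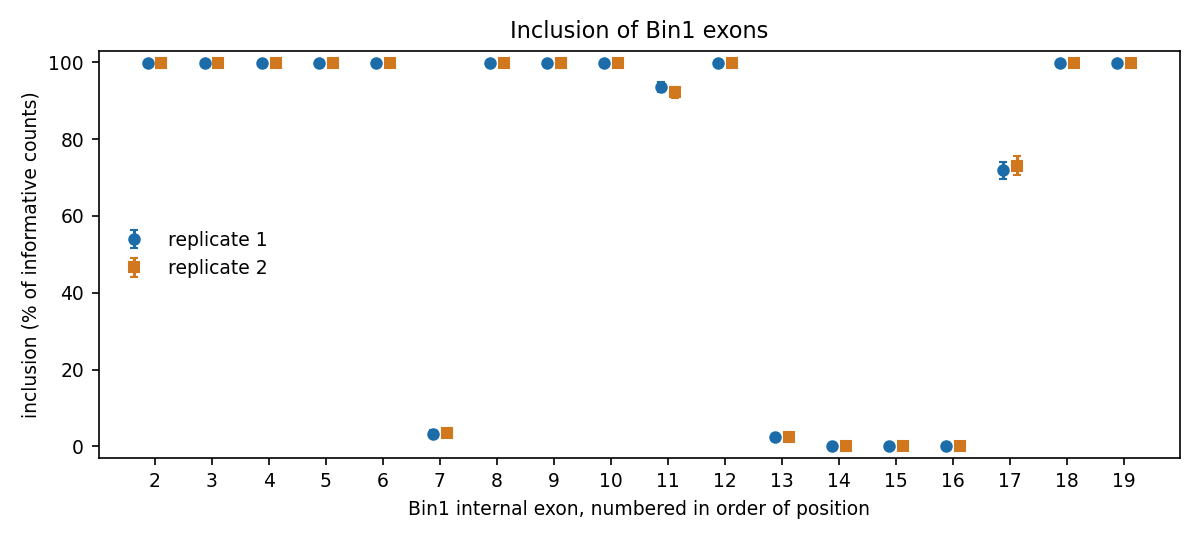
Inclusion of each internal exon of Bin1 (% of informative counts) by exon number in order of position, with exact 95% intervals per replicate. Exon 11 stands at 93.6% and 92.2%, exon 17 at 71.9% and 73.1%, and exons 7, 13, 14, 15 and 16 lie below 4%.

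Because a long read shows distant exons together, the combinations could be counted over the 1479 and 1357 reads that span exons 6 to 18. Exons 11 and 17 together, without the other alternative exons, made up 63.9% and 66.0% (64.9 ± 1.46%, n = 2). Exon 11 without exon 17 made up 25.3% and 22.5% (23.9 ± 1.99%). Exon 17 alone followed at 2.84% and 3.17%, exons 7, 11 and 17 together at 2.43% and 2.51%, none of the alternative exons at 1.22% and 2.28%, and exons 13 and 17 together at 1.49% and 0.958%. The first 4 of these forms came in the same order in both libraries, and the last 2 changed places. Of the full splice patterns on Known, NIC and NNC models, 80 in all, the leading one had 15 exons and 62.6% and 64.5% of these counts, and the next had 14 exons and 25.0% and 22.2%. The leading pattern was classed as NNC in replicate 1 and as NIC in replicate 2 although its introns were the same, and counts with exon 11 fell to NIC models in 426 and 1207 cases and to NNC models in 943 and 27. These 2 classes are therefore read together for Bin1. A further 35 and 30 counts with exon 11 were classed as ISM, although neither edge of this exon is the edge of an annotated one. The deposited classes of Bin1 models with exon 11 thus do not follow GENCODE M21 in every case.

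Exons 11 and 13 rarely occurred in the same Bin1 read. Exon 11 was in 6 of 34 reads with exon 13 in replicate 1 (17.6%, 6.76 to 34.5) and in 8 of 30 in replicate 2 (26.7%, 12.3 to 45.9). Without exon 13 it was in 95.7% (94.5 to 96.7) and 93.9% (92.5 to 95.2). Seen from the other side, exon 13 was in 31.1% and 21.6% of the reads that lacked exon 11, and in 0.437% and 0.641% of those that held it. The intervals with and without the partner exon did not overlap in either library. Exon 17 showed no such split with exon 11 in replicate 1 (72.0% with it, 73.3% without, intervals 69.6 to 74.4 and 63 to 82.1). In replicate 2 it was in 75.0% of reads with exon 11 (72.5 to 77.4) and in 57.8% without (47.7 to 67.6), and these intervals did not overlap. Between the libraries the intervals without exon 11 overlapped, and a difference was not tested. Exon 7 was in 3.35% and 3.21% of reads with exon 11, and in 3.33% and 7.84% of those without.

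Dnm2 lies on chromosome 9 (chr9:21424908-21507759, plus strand) and makes its protein from 1 of 2 neighbouring exons of equal length, known as exons 10a and 10b. The exons are shown because nearly every Dnm2 read that crosses this stretch holds 1 of the pair. The first is at chr9:21478899-21479037 and the second at chr9:21480407-21480545, and both are coding, of 139 bases and on the plus strand of mm10. They are printed 5′ to 3′ from the GENCODE M21 transcripts, with capitals at the 44 positions where they differ. The other 95 positions are the same, an identity of 68.3%. The exon of 30 bases (chr9:21487047-21487076) and that of 12 bases (chr9:21490658-21490669) are coding cassettes further downstream and keep the reading frame.
Dnm2 upstream exon: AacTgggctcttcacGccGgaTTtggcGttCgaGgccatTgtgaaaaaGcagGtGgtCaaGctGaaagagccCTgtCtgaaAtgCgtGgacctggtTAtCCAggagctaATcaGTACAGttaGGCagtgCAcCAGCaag
Dnm2 downstream exon: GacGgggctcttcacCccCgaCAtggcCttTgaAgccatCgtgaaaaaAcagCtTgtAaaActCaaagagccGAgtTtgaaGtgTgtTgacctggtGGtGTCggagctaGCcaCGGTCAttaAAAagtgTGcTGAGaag
Dnm2 exon of 30 bases: ctgtttctatactgaggagctggtcacagg
Dnm2 exon of 12 bases: ggggagatcttg

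The upstream exon was used alone in 123 of the 157 Dnm2 reads with 1 of the pair in replicate 1 (78.3%, 71.1 to 84.5) and in 106 of 141 in replicate 2 (75.2%, 67.2 to 82.1), or 76.8 ± 2.24% (n = 2). A difference between the libraries was not detected (p = 0.583, Fisher's exact test). Reads with both exons numbered 1 and 0, and reads with neither 1 and 2, so the pair was close to mutually exclusive. The exon of 30 bases, known from muscle, was in 53 of 158 informative counts (33.5%, 26.2 to 41.5) and in 65 of 143 (45.5%, 37.1 to 54.0). Its adjusted p between the libraries was 1.00 by Fisher's exact test. The exon of 12 bases was in 14.5% and 10.2%, and another annotated exon of 12 bases upstream of it had 0 counts of 159 and 147, which allows up to 1.89% and 2.04%. An early exon of 74 bases was included in 97.4% and 96.5%.

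The exons of 30 and 12 bases were not found in the same Dnm2 read. Of reads with the exon of 12 bases, 0 of 22 and 0 of 15 held that of 30 bases, which allows up to 13.6% and 20.0%. Of reads without it, 39.3% (31.0 to 48.0) and 49.6% (40.5 to 58.7) did. The cassettes showed no such split by the exclusive pair. The exon of 30 bases was in 34.1% and 44.8% of reads with the upstream exon and in 32.4% and 42.9% with the downstream one. That of 12 bases was in 13.8% and 9.52% with the upstream exon and in 14.7% and 14.3% with the downstream one, and for each cassette the 2 intervals overlapped in both libraries. The most common joint form had the upstream exon and neither cassette, at 40.8% and 34.3%, followed by the upstream exon with the exon of 30 bases, at 26.1% and 33.6%. At the 3′ end, 51.8% and 53.9% of reads used the nearest of 3 acceptor sites of the last exon, 35.7% and 31.2% a site 3 bases further in, and 12.5% and 14.9% a distal one. These choices spread Dnm2 over 47 splice patterns, more than in any other of the 9 genes but Bin1. The leading annotated form, Dnm2-202, held only 18.1% and 12.7%. Of 2 unannotated patterns, that of 21 exons held 13.5% and 14.1% and that of 20 exons 13.5% and 9.86%. In replicate 2 the pattern of 21 exons thus stood above Dnm2-202, with 20 counts against 18.

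Mtm1 lies on the X chromosome (chrX:71210767-71315691, plus strand). It had few reads, and they were of nearly 1 kind: Mtm1-203, with 15 exons, took 22 of 27 counts on Known, NIC and NNC models in each library (81.5%). The exon of 93 bases that some annotated models skip was in 27 of 27 and 26 of 27 counts, and those of 111 and 102 bases were in 28 of 28 in each. An unannotated pattern of 15 exons had 3 and 2 counts.

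Mtmr2 (chr9:13748410-13806481, plus strand) encodes a relative of myotubularin that is mutated in a demyelinating neuropathy. Mtmr2-201 held 21 of 36 counts (58.3%) and 24 of 52 (46.2%) on Known, NIC and NNC models, and Mtmr2-208 held 5 (13.9%) and 12 (23.1%). An exon of 71 bases, which is not coding in the annotation, was in 16.7% and 24% of counts, and an exon of 105 bases in 8.33% and 7.55%. An unannotated pattern of 16 exons had 4 and 3 counts. The intervals of these shares overlapped between the libraries. The Schwann markers given above were higher in replicate 2, as the Mtmr2 count was (36 and 56), and their part in that difference was not tested.

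The 2 caveolins differed in form. Cav3 (chr6:112459505-112472872, plus strand), which has 1 annotated transcript, was read as that 2-exon form in 125 of 127 counts (98.4%) and 186 of 186 (100%) of Known, NIC and NNC counts. Cav1 (chr6:17306335-17341452, plus strand), the caveolin abundant in endothelium, fat and fibroblasts, had 2 main forms. The 3-exon Cav1-201 held 67.5% and 60.0%, and the 2-exon Cav1-202 held 26.8% and 32.8%. The unadjusted p for the leading share was 0.0321 and the adjusted p 0.776 by Fisher's exact test. Of the Cav1 reads that reach an annotated first exon, 68.8% and 62.9% began with the first exon of Cav1-201, and 29.4% and 35.2% began within its intron 1 and read through into the next exon. An acceptor inside the last exon of Cav1-201, at chr6:17340098, was the last acceptor in 6.95% and 6.47%. The junction into the start of that exon was held by 401 and 416 reads, against 375 and 390 that had it as their last acceptor. The share therefore does not stand for a separate distal last exon. An annotated exon of 196 bases had 0 counts of 403 and 417, which allows up to 0.744% and 0.719%. The log2 ratio of the summed Cav1 level between the libraries was 0.00 (interval -0.19 to 0.20).

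Dysf (chr6:84008590-84211060, plus strand) is the longest of the 9 genes, and its reads rarely covered the whole transcript. Only 33.8% of its counts in replicate 1 (24 of 71) and 27.7% in replicate 2 (18 of 65) reached both an annotated first and an annotated last exon, against 80.6% to 98.4% in the other 8 genes. Along Dysf-202, which has 55 exons and 6613 bases, 57 and 51 counts held the last junction and 16 and 11 the first, or 28.1% and 21.6% as many. Reads that begin at the other annotated first exon, 8 in each library, cannot hold this first junction. The second junction was held by 24 and 19 counts. The level of Dysf therefore rests mainly on partial reads, and on Known, NIC and NNC models alone it was 26.2 CPM in place of 67.2 CPM. Of the reads with an annotated first exon, 16 of 24 (66.7%) and 11 of 19 (57.9%) began at the downstream one and 8 of 24 (33.3%) and 8 of 19 (42.1%) at the upstream one, and the intervals overlapped.

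**Figure D4:**
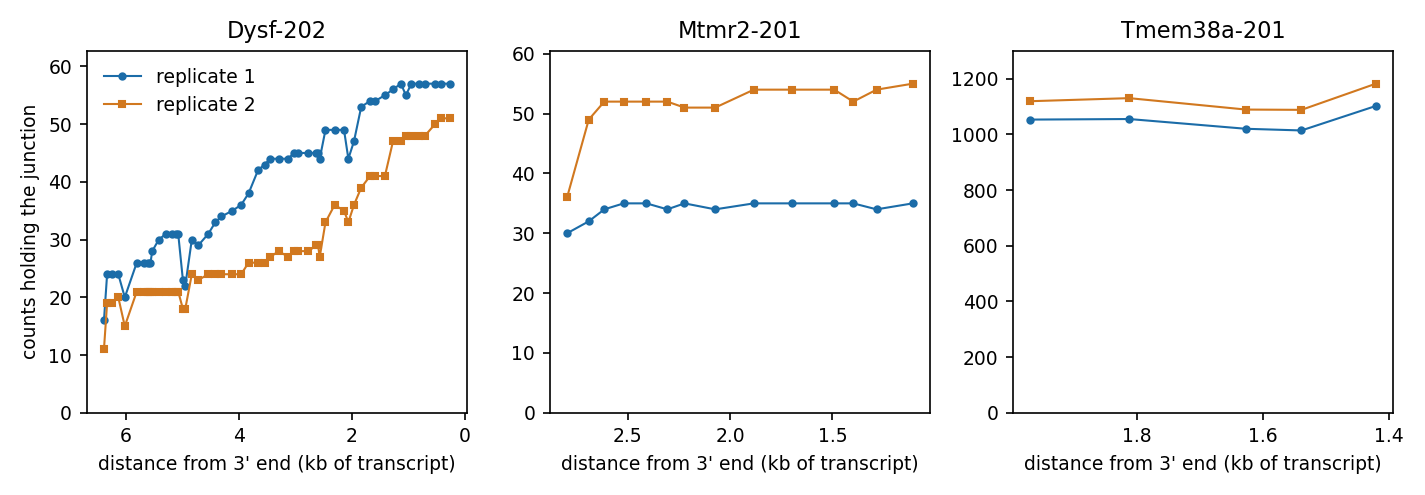
Counts that hold each splice junction of Dysf-202, Mtmr2-201 and Tmem38a-201, against the distance of the junction from the 3′ end (kb of transcript, 5′ to the left), for each replicate. Dysf counts fall from 57 and 51 at the last junction to 24 and 19 at the second and 16 and 11 at the first, while Tmem38a keeps 95.6% and 94.7%. The first Dysf-202 junction is absent from reads that begin at the other annotated first exon of Dysf.

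Where Dysf reads crossed an alternative exon, its use could be counted in small numbers. The 3 exons with intermediate or low use are shown, as coding cassettes that keep the frame, read from the GENCODE M21 transcripts and all on the plus strand of mm10: that of 93 bases at chr6:84064471-84064563, that of 42 bases at chr6:84096477-84096518 and that of 63 bases at chr6:84157139-84157201.
Dysf exon of 93 bases: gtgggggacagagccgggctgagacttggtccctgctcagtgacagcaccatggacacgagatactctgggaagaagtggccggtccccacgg
Dysf exon of 42 bases: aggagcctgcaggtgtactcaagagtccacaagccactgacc
Dysf exon of 63 bases: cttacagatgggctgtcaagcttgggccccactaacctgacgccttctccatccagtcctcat

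The Dysf exon of 42 bases was the one mostly included, in 22 of 29 counts (75.9%, 56.5 to 89.7) and 18 of 21 (85.7%, 63.7 to 97.0). That of 93 bases was in 6 of 26 (23.1%) and 5 of 20 (25.0%), and that of 63 bases in 5 of 49 (10.2%) and 3 of 36 (8.33%). An exon of 30 bases was in 45 of 47 (95.7%) and 29 of 29 (100%). An unannotated exon of 89 bases (chr6:84181370-84181458), a length that is not a multiple of 3, was in 5 of 52 (9.62%) and 1 of 37 (2.70%). The leading complete forms of Dysf were Dysf-202, with 7 of 26 and 5 of 27 counts on Known, NIC and NNC models, and Dysf-204, with 4 and 5. An unannotated pattern of 11 exons had 0 and 5 counts. At these depths the intervals are wide, and a difference between the libraries was not detectable.

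**Figure D5:**
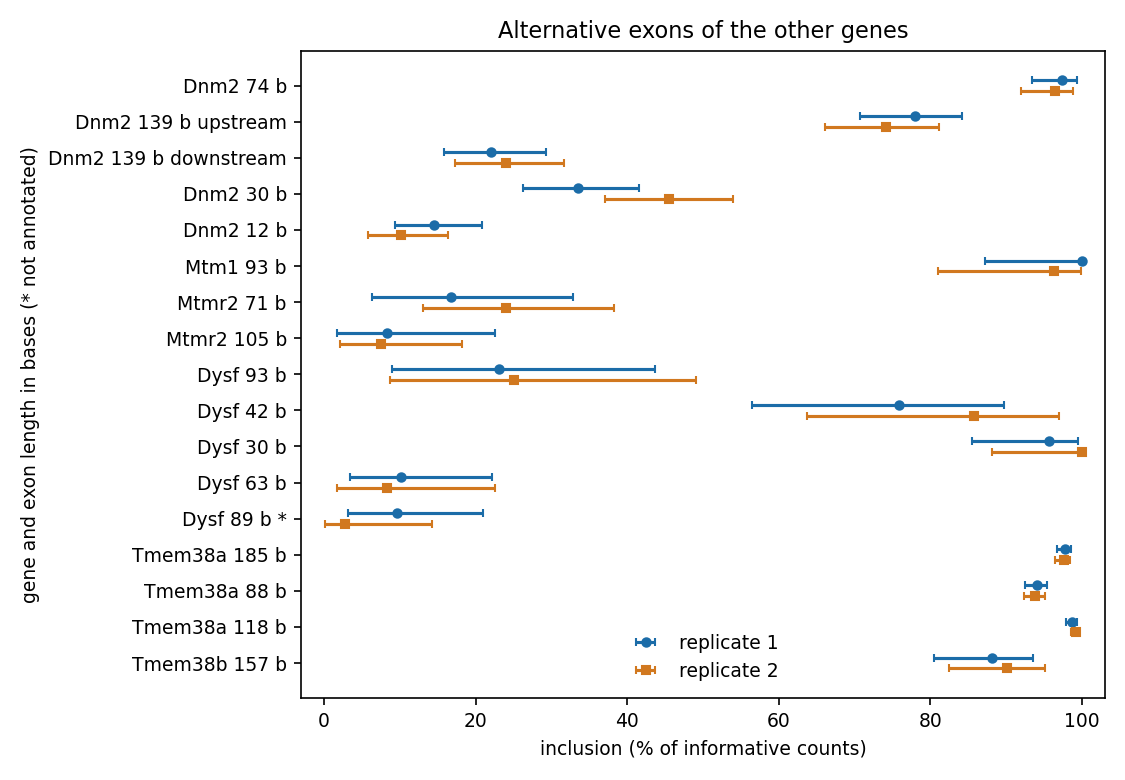
Inclusion of alternative exons of Dnm2, Mtm1, Mtmr2, Dysf, Tmem38a and Tmem38b (% of informative counts, exact 95% intervals), with 1 row per gene and exon length in bases and 1 point per replicate. The Dnm2 pair sits at 78.0% and 74.1% upstream and 22.0% and 24% downstream, and the Dysf exons of 93 and 42 bases have the widest intervals.

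The TRIC channel genes were each read mostly as 1 form of 6 exons. Tmem38a-201 (gene at chr8:72572055-72587282, plus strand) held 92.7% and 90.9% of Known, NIC and NNC counts, and Tmem38b-201 (chr4:53826045-53862019, plus strand) held 84.4% and 82.4%. In Tmem38a an exon of 88 bases was left out of a minority of reads, with inclusion of 94.0% and 93.8%, and exons of 185 and 118 bases were included in 97.7% and 97.6%, and in 98.7% and 99.2%. A form of the 185-base exon that ends earlier, of 174 bases, was found in 15 and 12 counts. In Tmem38b an exon of 157 bases was included in 88.1% and 90.1%. Neither the length of 88 bases nor that of 157 is a multiple of 3. Annotated Tmem38b exons of 91 and 104 bases had 0 counts, which allows up to 2.83% each in replicate 1.

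No splicing difference between the libraries passed the test in the 9 genes. Fisher's exact test with Benjamini-Hochberg adjustment called 0 of the 9 leading transcripts (smallest adjusted p = 0.776), where it called 0.484% of 5165 genes. At an unadjusted p under 0.05 the Cav1 form given above passed. It called 0 of 61 internal exons of these genes (all adjusted p = 1.00), where 0.0417% of 16789 exons were called, and the Dnm2 exon of 30 bases had an unadjusted p of 0.0443. Alternative exons were counted where another annotated transcript skips them or where their mean inclusion was between 5% and 95%, with at least 5 informative counts. By this rule 28 are annotated, 2 (in Bin1 and Dysf) overlap no annotated exon, and 28 are variants of an annotated exon with another edge, which had at most 27 counts over both libraries.

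Genes of the same pathways were read from 6 lists with 60 genes, of which 57 had counts and 51 were tested. Replicate 2 was higher in 5 and lower in 3 of them, and their median log2 ratio was -0.15, against 5.25% higher, 4.49% lower and a median of -0.04 over all genes tested. These calls cover counting error only. With a preset coefficient of variation of 0.1 in edgeR's exact test, calls over all genes fell from 1074 to 172. Among the BAR and dynamin relatives, 0 of 9 tested passed. Pacsin3, a membrane-bending protein of muscle, was the highest of them at 361 ± 1.41 CPM (181 CPM per kb) and Pacsin1, best known from neurons, the lowest with counts, at 0.988 ± 0.0190 CPM (0.216 per kb). Bin2 had no counts. Bin1 thus exceeded each of its listed relatives on both scales, and so did Dnm2 exceed Dnm1 (8.36 ± 3.33 CPM, 1.82 per kb) and Dnm3 (31.1 ± 4.29 CPM, 4.13 per kb), while Dnm1l, the dynamin of mitochondria, stood at 88.5 ± 15 CPM (22.3 per kb).

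Among the myotubularin relatives, 0 of 11 tested passed. Sbf1, a catalytically inactive partner of Mtmr2, was the highest in CPM, at 72.8 ± 17.5 (11.8 CPM per kb, where Mtmr6 led with 16.2), and Mtmr7 the lowest, at 0.501 ± 0.708. Mtm1 itself, at 28.1 CPM, lay below Mtmr1 (39.1 ± 5.64 CPM), its closest paralog, on the count scale and per kilobase (6.85 against 8.42). Of the kinases that make the phosphoinositides on which myotubularins act, listed with Vac14, Fig4 and Inpp5k, 1 of 7 tested was higher in replicate 2 and 0 were lower (all genes 5.25% and 4.49%). This was Vac14, the scaffold of the Pikfyve complex, which had the highest mean CPM of the list but not the highest level per kilobase, where Inpp5k led (15.2 against 11.9 CPM per kb). Vac14 was higher in replicate 2 (49.1 and 81.9 CPM, log2 ratio 0.73, adjusted p = 0.0441 by Fisher's exact test). Pikfyve itself was the lowest of that list, at 3.45 ± 0.632 CPM.

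Of the caveola coat genes, 1 of 6 was higher in replicate 2 and 0 were lower (all genes 5.25% and 4.49%), a count too small to set the list apart. This was Cavin3 (108 and 166 CPM, log2 ratio 0.61, adjusted p = 0.00883 by Fisher's exact test), alongside Cav3 with its log2 ratio of 0.51. Cavin4, the muscle cavin, was the highest, at 287 and 313 CPM (300 ± 18), with a log2 ratio of 0.12 (adjusted p = 0.639), and Cav2, the partner of Cav1, the lowest in CPM at 95.3 ± 3.05.

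Of the ferlin and membrane repair genes, 3 of 10 tested were higher in replicate 2 and 0 lower (all genes 5.25% and 4.49%). All 3 were annexins, which bind membrane in the presence of calcium: Anxa1 (81.1 and 146 CPM, log2 ratio 0.85), Anxa2 (510 and 655 CPM, 0.36) and Anxa5 (329 and 449 CPM, 0.45), with adjusted p of 5.25e-04, 6.34e-04 and 5.10e-04 by Fisher's exact test. These genes are also expressed in skin and other tissues, and the epidermal markers stood at 4.01 and 847 CPM in the same libraries. Their part in the result was not tested. Anxa6 had the highest mean CPM of the list, at 635 ± 13.6, though Anxa2 was above it in replicate 2, and it did not pass (log2 ratio 0.04, adjusted p = 0.853). Among the other ferlins, Myof had 8.44 ± 5.05 CPM and Otof, the lowest with counts, 1.48 ± 0.670 CPM, and Fer1l4 and Fer1l5 had none, so Dysf was the leading ferlin of this muscle in CPM and per kilobase.

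Of the neighbours at the triad, the contact of the tubule with the calcium store, 3 of 8 were lower in replicate 2 and 0 higher (all genes 4.49% and 5.25%). Cacna1s, the voltage sensor of the tubule, had 353 and 187 CPM (log2 ratio -0.92, adjusted p = 4.84e-11 by Fisher's exact test), and Jph1, which ties the tubule to the store, 121 and 64.3 CPM (-0.91, adjusted p = 7.93e-04). Casq1, the calcium buffer of the store and the highest of the list, had 3549 and 3143 CPM (-0.17, adjusted p = 2.74e-05). Stac3 was the lowest in CPM, at 17.8 ± 3.14. Jph1 and Cacna1s thus moved by more than any of the 9 genes, and in the other direction than Cav3. Their longest annotated transcripts have 4809 and 6251 bases, against 1847 for Casq1 and 1157 for Cav3. The part of transcript length in these differences was not tested.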

How the data were processed

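The deposited tables give the raw count of reads per transcript model in TALON format, per the file headers, with models built on mm10 and GENCODE M21 names, per a deposited readme. The coordinates (an other unit) are those of the deposited models. Platform, aligner, tool versions and strand handling were "not given in the sources used here". Nothing was taken from alignments. The 9 genes and the lists were chosen with earlier results of these data known.

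Counts of all classes were summed per gene. Unannotated loci (3.85% and 5.35% of all 1066347 and 1100253 counts) and spike-ins (2.50% and 1.38%) were kept out of every denominator. Models were matched between libraries by intron chain, since identifiers of unannotated models differ. Inclusion is the count with the exact internal exon over that plus the count with an intron across it. Libraries were compared by two-sided Fisher's exact tests (scipy 1.17.1) with Benjamini-Hochberg adjustment over all genes with 10 counts in sum, all leading transcripts with 20 counts per library and all exons with 20 informative counts per library, at 0.05. Log2 ratios used a prior count of 0.5. With 1 library per side, edgeR 4.0.16 has no residual degrees of freedom for a quasi-likelihood test, so its exact test ran with preset coefficients of variation. DESeq2 1.42.0 gave other size factors. The gene and exon tests were checked on simulated data that held counting error only, and the leading transcript test was not simulated. Intervals are exact Clopper-Pearson at 95%, the limit for a count of 0 is 3 counts, and both cover counting error only. All 9 genes were named, with the highest, lowest, absent and called genes of each list, every alternative annotated exon with 5 informative counts, and transcripts with 10% of their gene's counts. Dnm1, Dnm3, Dnm1l, Mtmr1, Mtmr6, Inpp5k and Myof were named after their values were seen.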

Additional observations from a re-analysis of the deposited data

Results flagged for a closer look

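Unannotated models on the strand opposite 3 of the genes held more than 3 counts in both libraries, in data that no gene value uses. Opposite Dysf they held 42 counts in replicate 1 and 68 in replicate 2, against 71 and 65 counts on Dysf itself, and none of them was spliced. Most lay in 2 places found in both libraries. The first, on the minus strand from chr6:84039597 to 84042680 in replicate 1 and to 84041956 in replicate 2, held 16 and 29 counts and overlapped 1 exon of Dysf-202. The second, from chr6:84088956 to 84092845 and 84092841, held 23 and 28 counts and overlapped none of its exons. Opposite Dnm2 the counts were 7 and 11, and opposite Mtmr2 7 and 4. The other 6 genes had 0 to 3 counts on the opposite strand in each library.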

How the results depend on the processing

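Of 309 recomputed values over 73 results, 261 were labelled the same as the reported one. For levels and shares this meant a value within the SD, and for counts of calls a value within a preset fold. For orders it meant an equal rank, and for log2 ratios the same sign and test outcome. Values from 1 replicate alone always lie within the SD of the 2 libraries, so for levels and shares this outcome was fixed in advance. The sum of the 9 genes, 3654 CPM, was 3415 with all counts as the denominator, 3367 on Known, NIC and NNC models and 1819 on Known models alone. On Known models alone Bin1 was at 78.5 CPM, since exon 11 is not annotated. The count of called genes, 1074, was 172 and 56 with preset coefficients of variation of 0.1 and 0.2 in edgeR's exact test. The share of calls higher in replicate 2, 53.9%, was 61.2% with DESeq2 size factors and 72.7% and 91.1% with these coefficients. Of the 9 genes, 2 were called, against 1 with exact binomial tests on TMM or DESeq2 scaling or with no count minimum (Cav3 in each) and 0 with either preset coefficient. Bin1 then had adjusted p of 0.0775, 0.187, 0.0655, 0.901 and 1.00. The sign turned for 3 ratios near 0 that no test called: Dnm2 was at 0.01 with DESeq2 size factors, and Mtm1 was at -0.04 and Dysf at 0.01 on Known, NIC and NNC models. Called exons rose from 7 to 13 on Known, NIC and NNC models. Exon, transcript and combination shares moved by at most 12.7 points, for the leading Dnm2 form with splice sites matched within 5 bases (28.1%). With each replicate alone, the sum of the 9 genes was 3620 to 3688 CPM, the Known share 48.1 to 51.5%, the Bin1 form with exons 11 and 17 63.9 to 66.0% and the upstream Dnm2 exon 75.2 to 78.3%, and the tests between libraries could not run. No paired analysis was possible because the series has 1 group. Mtm1, Mtmr2 and Dysf had at most 71 counts per library, which limits the precision of their shares.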
